A study of Arabidopsis thaliana with 24 samples.

Results

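Roots of Arabidopsis thaliana that kept their phosphate (Pi) were compared 6 h after transfer and at the start (0 h). The samples were the 3 arrays labelled 6 h with Pi and the 3 labelled 0 h with Pi, paired by the number of the experiment, which makes 6 of the 24 arrays of the series. Plus Pi roots at 6 h, at 24 h and at 1 h, and plus Pi roots at 0 h as the starting point, came from plants moved at 30 days of age into solution with 1.5 mM Pi. Minus Pi roots at 6 h and at 0 h came from plants of the same age that went into solution without Pi.

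All groups shared the same handling. Plants grew in aerated nutrient solution under 10 h of light at 21 °C and 14 h of dark at 18 °C, and the solution was renewed 24 h before the start. They were washed briefly in 0.1 mM EDTA, a metal chelator, and moved 1 h into the light period. The 6 h samples therefore lay 7 h into the light period, and the 24 h samples lay at the hour of the day of the 0 h samples. Each sample pooled the roots of about 20 plants, and the experiment was run 3 times with 1 array per group. The difference between 6 h and 0 h holds the hour of the day, the handling and the transfer together, and these cannot be told apart in it.

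Plant roots carry a circadian clock, in which dawn genes and evening genes repress each other in turn, and light reaching the shoot can set its phase through transported sugar and other signals. A second, faster layer of root transcription answers touch, wounding and movement of the solution through calcium signals, calmodulin-like proteins, cell wall enzymes and short-lived transcription factors. Roots depend on sugar from the leaves, and genes such as DIN10 or GDH2 are known to rise when sugar runs short. Sulfur, iron, nitrate and Pi supply each have their own sets of marker genes.

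Values are expression levels on a log2 scale, so that a difference of 1 is a 2-fold change, and a gene was called when its limma p, adjusted by Benjamini-Hochberg over all 22746 probe sets, was under 0.05. The array medians lay between 6.35 and 6.45, and replicate arrays correlated with r between 0.950 and 0.992. Of the probe sets 17103 named 1 gene, 672 named several and 4971 were unnamed here, and 377 of 708 genes in 34 gene lists were measured. Level differences between experiments took up 80% of the first principal component, which held 37.6% of the variance, so the experiment was a term of the model. Root marker lists were set against the array median. In plus Pi roots at 6 h and at 0 h, between 7 and 10 of 12 endodermis genes and between 5 and 8 of 9 xylem genes stood above the array median. Of 11 root hair genes 7, 9 and 9 did so at 6 h in experiments 1, 2 and 3, against 8, 5 and 4 at 0 h. The median is the middle of all probe sets, so these counts alone do not show that a marker was present.

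Between 6 h and 0 h, 1435 probe sets (6.31%) were called in plus Pi roots, 666 higher (2.93%) and 769 lower (3.38%) at 6 h. The median difference over all probe sets was 0.01. Of the calls 1431 had the same sign in the 3 experiments, 1160 had groups that did not overlap, and 390 (1.71%) were at least 2-fold. The calls were made from these same differences, so an equal sign in the 3 experiments follows largely from the call. Over all probe sets, called or not, the groups did not overlap in 2938 (12.9%), with the 6 h arrays above the 0 h arrays in 1516 (6.66%) and below them in 1422 (6.25%). The 2-fold calls split into 145 higher and 245 lower. Without the experiment as a term 532 probe sets were called. Leaving out the 6 h array of experiment 1 or 2 gave 771 or 775 calls, and leaving out the 0 h array of experiment 1 or 2 gave 884 or 861.

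The 3 experiments differed in the size of the change. Median rises of the called probe sets were 0.68, 0.67 and 0.47 in experiments 1, 2 and 3, and median falls were -0.86, -0.72 and -0.67. These values describe probe sets that were chosen by the same contrast. Over all probe sets, the SD of the 6 h less 0 h differences was 0.48, 0.44 and 0.36. Experiment 3 thus had the smallest changes by each of these measures.

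Of 6 measured clock genes of the dawn phase 4 were lower at 6 h. The fall was largest in AT3G54500, which the gene table also lists as LNK2, a transcriptional coactivator gene of the clock. Its level was 5.54, 4.85 and 4.49 in plus Pi roots at 6 h, against 9.79, 8.83 and 9.08 at 0 h. The 6 h arrays lay below the 0 h arrays in each experiment with a gap of over 3 units between the groups, and the difference of -4.27 (SE 0.22) is 19.3-fold (limma adjusted p = 2.64e-09). AT5G64170, listed also as LNK1, stood at 6.85, 6.64 and 6.91 at 6 h, against 8.93, 8.33 and 8.94 at 0 h (difference -1.93, SE 0.13, limma adjusted p = 9.29e-08). RVE1, a MYB-like factor that links the clock to auxin, stood at 4.40, 4.12 and 4.39 at 6 h, against 5.66, 5.38 and 5.95 at 0 h (difference -1.36, SE 0.15, limma adjusted p = 2.77e-05). In none of these 3 genes did the groups overlap. LCL1, another MYB-like clock gene, fell by 0.92 (SE 0.23, limma adjusted p = 0.0214) with overlapping groups, and it was not called without the experiment term (adjusted p = 0.453) or without the 6 h array of experiment 2 or 3 or the 0 h array of experiment 1 or 3 (highest adjusted p = 0.101). No dawn gene was called higher, and the list median was -1.14.

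Of 13 measured clock genes of the day and evening 6 were higher and 2 lower at 6 h, with a median of 0.43. TOC1, an evening repressor at the core of the clock, had 9.14, 8.74 and 8.80 in plus Pi roots at 6 h, against 7.55, 7.61 and 7.99 at 0 h. The groups did not overlap, and the rise of 1.18 (SE 0.15) is 2.26-fold (limma adjusted p = 8.21e-05). PRR5, a related repressor of dawn genes, had 8.02, 6.47 and 6.69 at 6 h, against 5.14, 5.58 and 6.04 at 0 h. Its groups did not overlap, but the rise of 1.48 (SE 0.37, limma adjusted p = 0.0209) was 2.88 in experiment 1, 0.89 in experiment 2 and 0.66 in experiment 3. PRR3, a partner of TOC1, rose by 1.54 (SE 0.19, limma adjusted p = 8.27e-05), and COR27, a cold- and light-regulated gene, by 1.8 (SE 0.49, limma adjusted p = 0.0351). AT4G33980, a locus of the list with no symbol, rose by 2.52 (SE 0.28, limma adjusted p = 2.32e-05). The DOF factor CDF3 went the other way and fell by 1.36 (SE 0.20, limma adjusted p = 5.05e-04). Without the 6 h array of experiment 1, 4 members were called, and PRR5 (adjusted p = 0.129) and COR27 (adjusted p = 0.185) were not among them. PRR5 also lost its call without the 0 h array of experiment 1 or 2, and COR27 without any other of the 6 arrays but the 6 h array of experiment 3. Without the experiment term 3 members were called, and COR27, PRR3 and CDF3 were not among them (adjusted p = 0.0669, 0.156 and 0.225).

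**Figure D1:**
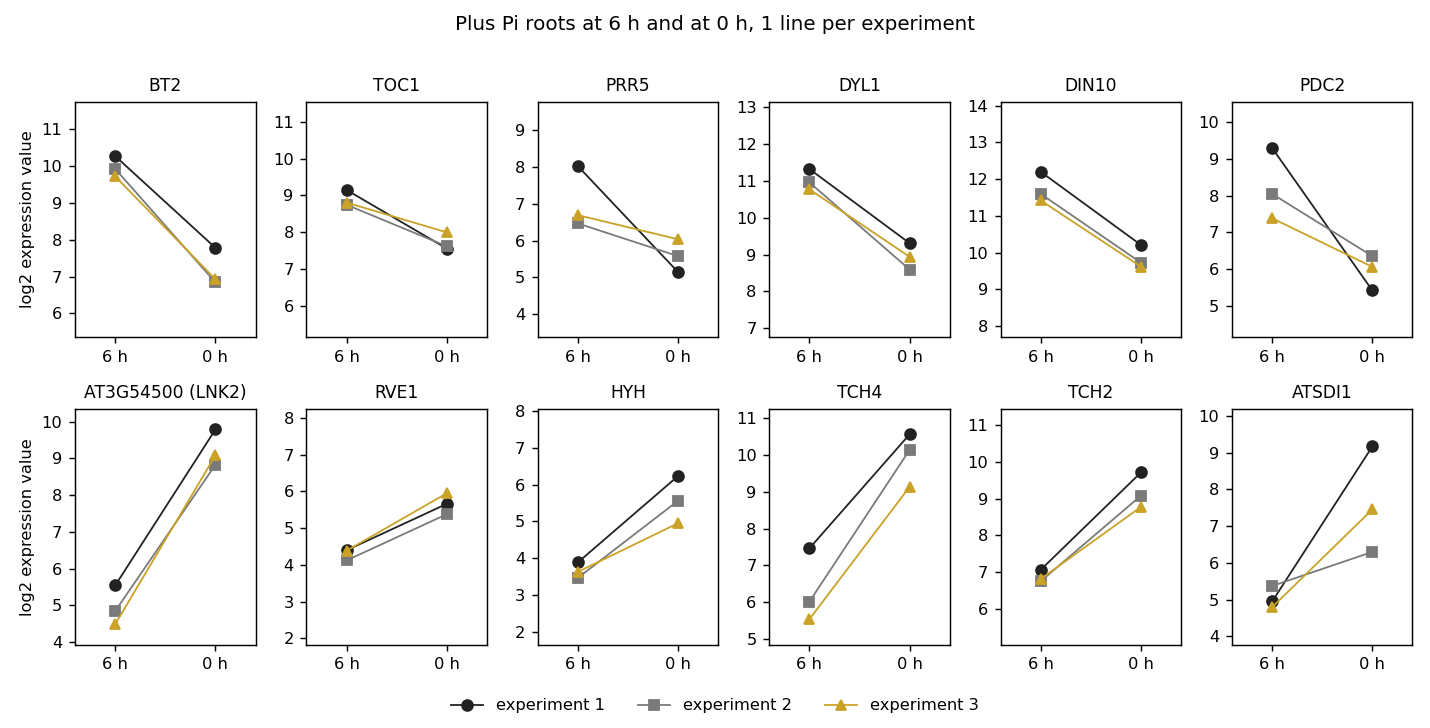
Expression level (log2, vertical axis, each panel spanning the same number of units) of 12 genes in plus Pi roots at 6 h and at 0 h, with 1 point per array and a line joining the arrays of 1 experiment. The upper 6 genes were called higher at 6 h and the lower 6 were called lower. All 12 were chosen among the calls of this same contrast, so that all 3 lines of a panel run the same way follows largely from that choice. AT3G54500 and TCH4 show the steepest falls (-4.27 and -3.61).

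Of 7 measured light signalling genes 3 fell and none rose. HYH, a bZIP factor of photomorphogenesis, had 3.89, 3.47 and 3.63 in plus Pi roots at 6 h, against 6.24, 5.56 and 4.95 at 0 h, without overlap (difference -1.92, SE 0.30, limma adjusted p = 6.43e-04). BBX19, a B-box factor, had 5.81, 6.05 and 6.24 at 6 h, against 7.58, 7.46 and 7.72 at 0 h, also without overlap (difference -1.55, SE 0.13, limma adjusted p = 2.02e-06). HY5, the close relative of HYH, fell by 0.83 (SE 0.22, limma adjusted p = 0.0311), a call that was lost without the experiment term (adjusted p = 0.258) and without any 1 of the 6 arrays but the 0 h array of experiment 1 (highest adjusted p = 0.170). Among the flavonoid genes, of which HY5 is a known activator, 2 of 15 fell. F3H, a flavanone hydroxylase gene, had 4.79, 4.89 and 4.70 at 6 h, against 7.71, 8.05 and 6.00 at 0 h (difference -2.46, SE 0.55, limma adjusted p = 0.0110). UGT78D2, a flavonoid glucosyltransferase gene, fell by 1.14 (SE 0.21, limma adjusted p = 0.00240). The F3H call was lost without the 6 h or the 0 h array of experiment 1 or 2 (highest adjusted p = 0.0684), and the UGT78D2 call without the experiment term (adjusted p = 0.301).

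Further named genes outside these lists changed at 6 h. ABCI21, a gene of a soluble ABC protein, had 7.24, 7.45 and 6.86 in plus Pi roots at 6 h, against 10.65, 11.35 and 10.02 at 0 h. All 6 h arrays lay below all 0 h arrays, and the difference of -3.49 (SE 0.33) is 11.2-fold (limma adjusted p = 5.13e-06). Its relative ABCI20 fell by 2.33 (SE 0.26, limma adjusted p = 2.34e-05). BBX8, another B-box gene, had 7.54, 7.36 and 7.25 at 6 h, against 5.04, 5.68 and 5.88 at 0 h, and rose by 1.85 (SE 0.22, limma adjusted p = 4.79e-05).

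The touch and calcium genes were the list with the most falls. TCH4, a touch-induced xyloglucan-modifying enzyme gene, had 7.46, 6.01 and 5.53 in plus Pi roots at 6 h, against 10.56, 10.14 and 9.13 at 0 h. The highest 6 h array was below the lowest 0 h array, and the difference of -3.61 (SE 0.40) is 12.2-fold (limma adjusted p = 2.39e-05). TCH2, a calmodulin-like protein gene, had 7.06, 6.75 and 6.81 at 6 h, against 9.71, 9.08 and 8.77 at 0 h, again without overlap (difference -2.31, SE 0.16, limma adjusted p = 1.05e-07). CML23, a second calmodulin-like gene, fell by 2.42 (SE 0.25, limma adjusted p = 1.20e-05), and AT3G01830, a locus of the list with no symbol, by 2.24 (SE 0.24, limma adjusted p = 2.04e-05). PHI-1, named for its induction by Pi in tobacco cells, fell by 2.08 (SE 0.44, limma adjusted p = 0.00695), with groups that overlapped. CML37, also calmodulin-like, fell by 1.97 (SE 0.50, limma adjusted p = 0.0237). Of 16 measured members 11 were lower and none was higher, with a median of -1.27. Without the 0 h array of experiment 1, 6 members were called, and without the 6 h array of experiment 1, 7 were. PHI-1 was then lost without the 0 h array (adjusted p = 0.0531). The CML37 call was lost without the 6 h or the 0 h array of experiment 1 or 2 (highest adjusted p = 0.133). It was also lost without the experiment term (adjusted p = 0.0994).

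Of 21 measured rapidly induced stress regulators 9 were lower at 6 h and none was higher. RRTF1, a redox-responsive ERF gene, had 5.07, 4.23 and 4.41 in plus Pi roots at 6 h, against 7.43, 6.11 and 6.44 at 0 h (difference -2.09, SE 0.26, limma adjusted p = 7.98e-05). RHL41, a zinc finger factor gene of light and cold acclimation, had 5.95, 7.60 and 8.11 at 6 h, against 9.0, 9.20 and 9.45 at 0 h (difference -1.99, SE 0.31, limma adjusted p = 7.83e-04). In neither gene did the groups overlap. AT5G51190, which the table also lists as ERF105, fell by 2.23 (SE 0.46, limma adjusted p = 0.00672). BAP1, a C2-domain inhibitor gene of cell death, fell by 2.17 (SE 0.41, limma adjusted p = 0.00341) and WRKY18, a defence regulator, by 1.53 (SE 0.24, limma adjusted p = 8.24e-04). The zinc finger gene STZ fell by 1.77 (SE 0.43, limma adjusted p = 0.0192). The list median was -0.84. AT5G51190 lost its call without the 6 h array of experiment 1 (adjusted p = 0.0542), and STZ without the 6 h array of experiment 1 or 2, the 0 h array of experiment 1 (highest adjusted p = 0.111) or the experiment term (adjusted p = 0.102). Against the minus Pi arrays at 0 h, 14 members were lower and none was higher, and WRKY18 differed by -2.31.

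Other large falls had no list of their own. DIC2, a mitochondrial dicarboxylate carrier gene, had 6.50, 6.30 and 6.77 in plus Pi roots at 6 h, against 9.85, 10.13 and 9.67 at 0 h. The groups stood about 3 units apart, and the difference of -3.36 (SE 0.30) is 10.3-fold (limma adjusted p = 3.95e-06). NUDT21, a Nudix hydrolase gene, fell by 2.48 (SE 0.23, limma adjusted p = 5.13e-06). CAF1a, an mRNA deadenylase gene, fell by 2.17 (SE 0.27, limma adjusted p = 7.83e-05), and MYB77, a MYB factor gene of auxin response, by 2.12 (SE 0.27, limma adjusted p = 1.10e-04). G3Pp1, a glycerol-3-phosphate transporter-like gene, fell by 2.35 (SE 0.48, limma adjusted p = 0.00661), but was not called without the experiment term (adjusted p = 0.276).

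**Figure D2:**
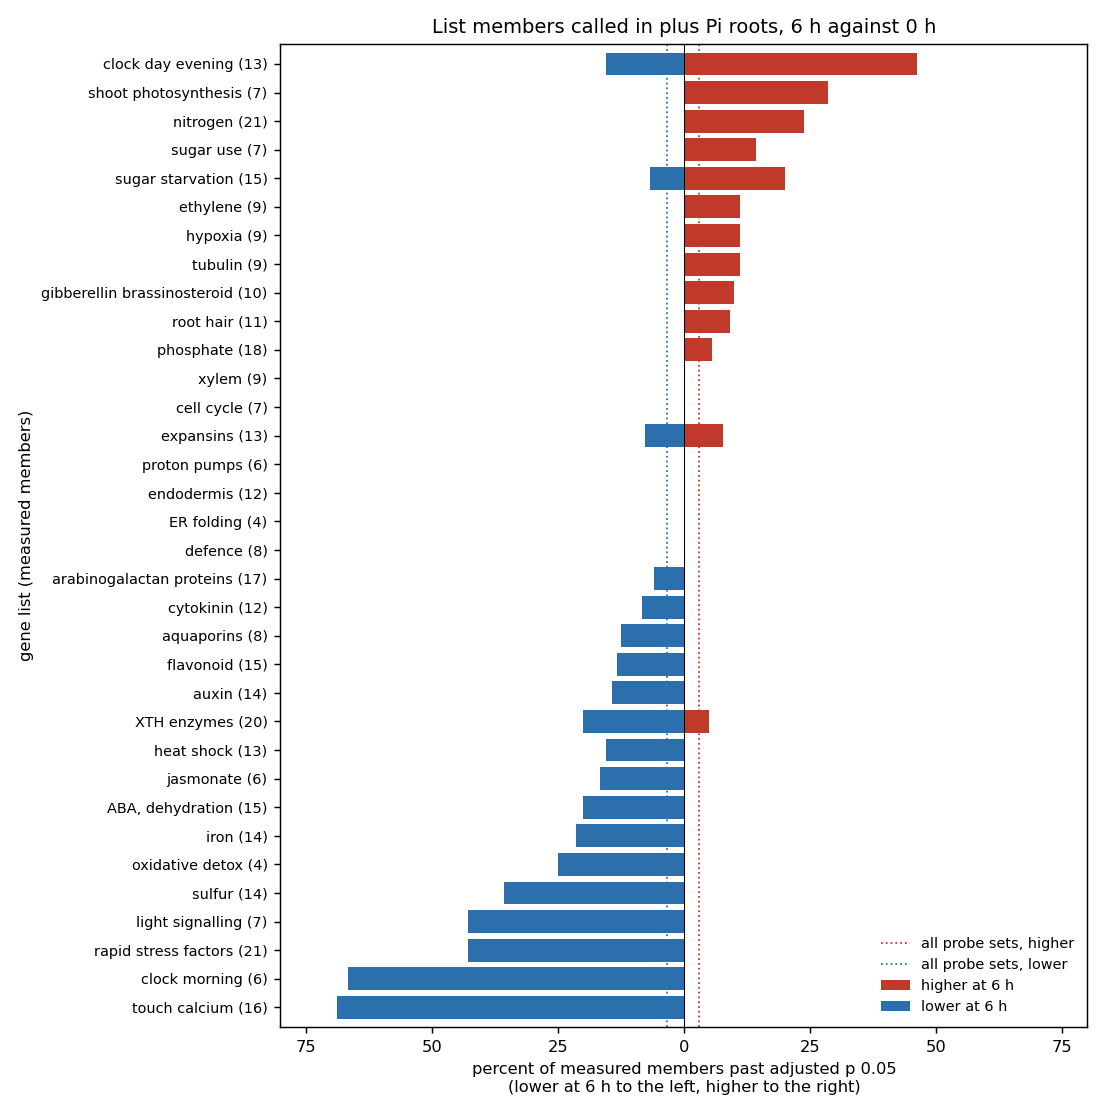
Share of the measured members of each of 34 gene lists that were called lower (to the left) or higher (to the right) in plus Pi roots at 6 h against 0 h, in percent, with the number of measured members beside each name. Dotted lines mark the shares over all probe sets, 3.38% lower and 2.93% higher. The touch and calcium list (11 of 16 lower) and the dawn clock list (4 of 6 lower) reach farthest to the left, and the day and evening clock list (6 of 13 higher) farthest to the right.

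Cell wall enzymes split within their families. Of 20 measured xyloglucan endotransglucosylase genes (XTH, which also hold TCH4) 4 were lower and 1 was higher, with a median of 0.02. XTR6 had 6.76, 5.01 and 5.65 in plus Pi roots at 6 h, against 9.27, 7.50 and 6.75 at 0 h. It fell in each experiment, by 2.03 on average (SE 0.28, limma adjusted p = 2.21e-04), but the groups overlapped and the call was lost without the experiment term (adjusted p = 0.237). XTH19 fell by 1.91 (SE 0.39, limma adjusted p = 0.00661) and XTH18 by 1.13 (SE 0.23, limma adjusted p = 0.00598). XTH26 rose, with 5.66, 7.05 and 6.94 at 6 h, against 4.92, 4.49 and 4.19 at 0 h (difference 2.02, SE 0.46, limma adjusted p = 0.0120). Among 13 expansins EXLB1 rose by 1.14 (SE 0.23, limma adjusted p = 0.00612) and EXLA1 fell by 1.4 (SE 0.38, limma adjusted p = 0.0325). The calls of EXLB1 and EXLA1 were lost without the experiment term (adjusted p = 0.145 and 0.196), and that of EXLA1 without the 6 h array of experiment 1 or 3 or the 0 h array of experiment 1 (highest adjusted p = 0.193).

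XTH26 and the root hair gene PRP3, which codes for a wall protein, need the 0 h levels beside them. PRP3 had 9.67, 9.43 and 9.01 in plus Pi roots at 6 h, against 9.25, 7.40 and 6.38 at 0 h. Experiment 1 was already high at 0 h, the groups overlapped, and the difference was 1.69 (SE 0.40, limma adjusted p = 0.0161). The summed linear level of 11 root hair genes was 4097, 3640 and 3147 at 6 h, against 3866, 1463 and 1561 at 0 h in plus Pi roots. The minus Pi roots at 0 h, which had spent no time without Pi, stood at 4900, 4112 and 2364. Against those arrays, PRP3 differed by 0.17 (limma adjusted p = 0.892), XTH26 by 0.27 (limma adjusted p = 0.831) and the list median was -0.07, with 0 of 11 members called by limma (1 of 11 at an unadjusted p under 0.05, and 0 called without the experiment term). Against the plus Pi arrays at 0 h the list median was 0.63 and 1 of 11 was called (7 of 11 at an unadjusted p under 0.05). With no experiment term 0 of 11 were called, with 3 of 11 at an unadjusted p under 0.05. The calls of XTH26 and PRP3 were lost without the 6 h or the 0 h array of experiment 2 or 3 (highest adjusted p = 0.0703 and 0.0977), and that of PRP3 without the experiment term (adjusted p = 0.328). In such pooled root samples, fewer cells of a type and less RNA per cell cannot be told apart.

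Of 15 measured genes of sugar shortage 3 rose and 1 fell. DIN10, a raffinose synthase family gene induced in the dark, had 12.20, 11.60 and 11.42 in plus Pi roots at 6 h, against 10.21, 9.73 and 9.62 at 0 h. The groups did not overlap (difference 1.89, SE 0.43, limma adjusted p = 0.0119). GDH2, a glutamate dehydrogenase gene, rose by 1.62 (SE 0.38, limma adjusted p = 0.0156) and AKINBETA1, a subunit gene of the energy sensor kinase SnRK1, by 1.04 (SE 0.24, limma adjusted p = 0.0146). TPS5, a trehalose-phosphate synthase-like gene that is known to follow sugar supply, fell by 0.46 (SE 0.11, limma adjusted p = 0.0154). The list median was 0.97, and it was 1.93, 0.84 and 0.18 in experiments 1, 2 and 3. Without the 6 h array of experiment 1 no member was called (DIN10 adjusted p = 0.0630, GDH2 0.115, AKINBETA1 0.0894, TPS5 0.0694). Single calls were also lost without the 6 h array of experiment 2 (all 4 genes), without the 0 h array of experiment 1 (GDH2 and TPS5) or 2 (GDH2 and AKINBETA1) and without that of experiment 3 (DIN10, GDH2 and TPS5). Only DIN10 was called without the experiment term. Against the minus Pi arrays at 0 h the list median was 0.56, and none of the 4 genes was called (DIN10 adjusted p = 0.0601, GDH2 0.123, AKINBETA1 0.0597, TPS5 0.156). The 1 member called there, higher at 6 h, was the glutamate dehydrogenase gene GDH1 (0.95, limma adjusted p = 0.0417), named after its values were seen.

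The asparagine synthetase gene ASN1, a dark- and starvation-induced gene, did not pass. It had 9.70, 7.81 and 6.67 in plus Pi roots at 6 h, against 5.59, 6.30 and 6.91 at 0 h, so that experiment 3 ran against the other two (difference 1.8, SE 0.79, limma adjusted p = 0.224). DYL1, a gene known from dormant and auxin-repressed tissue, was more even. It had 11.33, 10.96 and 10.78 at 6 h, against 9.31, 8.59 and 8.94 at 0 h (difference 2.07, SE 0.27, limma adjusted p = 1.14e-04).

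BT2 had the second largest rise among called genes with a symbol. It codes for a scaffold protein that answers to nitrate, sugar and the hour of the day. BT2 had 10.28, 9.93 and 9.73 in plus Pi roots at 6 h, against 7.78, 6.84 and 6.93 at 0 h. The lowest 6 h array was far above the highest 0 h array, and the difference of 2.79 (SE 0.43) is 6.93-fold (limma adjusted p = 6.64e-04). LBD38, a nitrate-induced repressor gene, rose by 1.14 (SE 0.23, limma adjusted p = 0.00606), its relative LBD39 by 0.81 (SE 0.23, limma adjusted p = 0.0435) and CIPK23, the kinase gene of nitrate and potassium uptake, by 0.43 (SE 0.09, limma adjusted p = 0.00544). Of 21 measured nitrogen genes 5 were higher and none was lower, with a median of 0.12. Without the experiment term 2 members were called, and LBD39, CIPK23 and GDH2 were not among them (adjusted p = 0.108, 0.0697 and 0.0667). LBD39 was not called without any 1 of the 6 arrays (highest adjusted p = 0.192), and GDH2 was called only without the 6 h array of experiment 3 (highest adjusted p otherwise 0.115). Against the minus Pi arrays at 0 h 3 members were called. LBD38 was not among them (0.72, limma adjusted p = 0.0734), nor were LBD39 and GDH2 (adjusted p = 0.153 and 0.123).

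Among the other named genes that rose was PDF2.1, a defensin-like peptide gene. It had 10.63, 9.69 and 9.28 in plus Pi roots at 6 h, against 5.73, 5.80 and 7.94 at 0 h. The groups did not overlap, and this was the largest rise among called genes with a symbol (difference 3.37, SE 0.48, limma adjusted p = 3.26e-04). PDC2, a pyruvate decarboxylase gene of fermentation, had 9.30, 8.05 and 7.39 at 6 h, against 5.42, 6.36 and 6.06 at 0 h (difference 2.30, SE 0.44, limma adjusted p = 0.00387). It was the only one of 9 measured low-oxygen genes that was called. PMT6, a sugar and polyol transporter gene, rose by 2.47 (SE 0.36, limma adjusted p = 3.58e-04). The amino acid permease gene AAP3 rose by 1.73 (SE 0.27, limma adjusted p = 8.01e-04), but was not called without the experiment term (adjusted p = 0.129). BGAL2, a beta-galactosidase gene, rose by 2.04 (SE 0.30, limma adjusted p = 4.38e-04), and STY46, a protein kinase gene, by 2.02 (SE 0.41, limma adjusted p = 0.00536). STY46 was not called against the minus Pi arrays at 0 h (adjusted p = 0.0515). The hexose transporter gene MSS1, the only called member among 7 sugar transport and cleavage genes, had 7.01, 6.48 and 6.80 at 6 h, against 4.46, 5.16 and 6.29 at 0 h (difference 1.46, SE 0.36, limma adjusted p = 0.0188). It was not called without the 6 h or the 0 h array of experiment 1 or 2 (highest adjusted p = 0.136) or without the experiment term (adjusted p = 0.180).

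Of 14 measured sulfur genes 5 fell and none rose. ATSDI1, a gene named for its induction when sulfur is short, had 4.95, 5.37 and 4.79 in plus Pi roots at 6 h, against 9.16, 6.30 and 7.45 at 0 h. The 6 h arrays were alike, the 0 h arrays differed by almost 3 units, and the groups did not overlap (difference -2.60, SE 0.55, limma adjusted p = 0.00802). LSU2, a second marker of low sulfur, fell by 1.76 (SE 0.47, limma adjusted p = 0.0300). AT5G26220, which the table also lists as GGCT2;1 of glutathione breakdown, fell by 1.25 (SE 0.31, limma adjusted p = 0.0195), AT1G04770 by 1.30 (SE 0.37, limma adjusted p = 0.0429) and the vacuolar sulfate exporter gene SULTR4;1 by 0.99 (SE 0.17, limma adjusted p = 0.00157). The list medians were -1.21, -0.23 and -0.91 in experiments 1, 2 and 3. Without the 0 h array of experiment 1 only SULTR4;1 was called (ATSDI1 adjusted p = 0.0594). The other 4 calls also depended on further arrays, ATSDI1 on the 6 h array of experiment 1, LSU2 and AT5G26220 on the 6 h array of experiment 2 and the 0 h array of experiment 3, LSU2 also on the 6 h array of experiment 3, and AT1G04770 on each array but the 0 h array of experiment 2. ATSDI1 and SULTR4;1 were the 2 members called without the experiment term. Against the minus Pi arrays at 0 h the list median was -0.39, against -0.80 with the plus Pi ones, and 1 member was called, ATSDI1 (-1.89, limma adjusted p = 0.0487). SULTR4;1 then differed by -0.48 (limma adjusted p = 0.104), and LSU2, AT1G04770 and AT5G26220 were not called (adjusted p = 0.171, 0.216 and 0.0728).

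Of 14 iron genes 3 were lower and none was higher. The regulator gene bHLH39 had 4.63, 5.12 and 7.2 in plus Pi roots at 6 h, against 6.90, 8.09 and 8.15 at 0 h, with overlap (difference -2.06, SE 0.50, limma adjusted p = 0.0182). The transporter gene OPT3 fell by 1.56 (SE 0.36, limma adjusted p = 0.0139) and PYE, a repressor gene of the iron response, by 0.70 (SE 0.12, limma adjusted p = 0.00202). IRT1, the main iron transporter gene of the root surface, had 4.92, 4.88 and 8.82 at 6 h, against 7.30, 8.41 and 8.0 at 0 h. Experiments 1 and 2 were lower at 6 h and experiment 3 was higher, and IRT1 was not called (difference -1.69, SE 0.85, limma adjusted p = 0.306). FER1, an iron storage gene, differed by 0.61 (SE 0.28, limma adjusted p = 0.248). Of the 3 calls, only PYE was also made without the experiment term. The call of bHLH39 was lost without the 6 h array of experiment 1 or 2 or the 0 h array of experiment 2 (highest adjusted p = 0.106). The call of OPT3 was lost without the 6 h or the 0 h array of experiment 3 (highest adjusted p = 0.0813). Against the minus Pi arrays at 0 h bHLH39 differed by -1.09 and was not called (adjusted p = 0.239).

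Of 18 measured genes of Pi sensing, transport and recycling 1 was called. This was WRKY75, a transcription factor gene of the Pi response and of defence. It had 6.88, 6.43 and 7.54 in plus Pi roots at 6 h, against 4.36, 5.09 and 6.21 at 0 h, without overlap (difference 1.73, SE 0.47, limma adjusted p = 0.0330). It was not called without any 1 of the 6 arrays (highest adjusted p = 0.166) without the experiment term (adjusted p = 0.252) or against the minus Pi arrays at 0 h (adjusted p = 0.0731). SPX1, a Pi sensor gene, had 7.0, 6.41 and 5.89 at 6 h, against 7.48, 6.67 and 7.30 at 0 h (difference -0.72, SE 0.34, limma adjusted p = 0.272). The list median was -0.02. The list does not hold the glycerol-3-phosphate transporter-like gene G3Pp1, named above, which fell by 2.35 (limma adjusted p = 0.00661). Without the experiment term G3Pp1 was not called (adjusted p = 0.276).

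The hormone and heat shock lists held 1 to 3 called members each. Limma called 1 of 9 ethylene, 1 of 6 jasmonate, 1 of 12 cytokinin, 1 of 10 gibberellin and brassinosteroid and 2 of 14 auxin genes. Over all probe sets 6.31% were called, and 1 or 2 calls in lists this small are not read as a result about the list. Among 15 abscisic acid and dehydration genes ABF3, CYP707A3 and ABI2 fell by 0.95, 0.99 and 0.54 (limma adjusted p = 0.00279, 0.0193 and 0.0188), and none rose. EBF2, an ethylene-induced F-box gene, rose by 1.29 (SE 0.21, limma adjusted p = 0.00111), the jasmonate synthesis gene AOS fell by 0.87 (SE 0.10, limma adjusted p = 5.76e-05), and the cytokinin response gene RR5 fell by 0.93 (SE 0.23, limma adjusted p = 0.0206). The gibberellin receptor gene GID1A rose by 0.83 (SE 0.19, limma adjusted p = 0.0121), and the auxin genes GH3.1 and IAA14 fell by 1.01 and 0.55 (limma adjusted p = 0.0481 and 0.00990). Of 13 heat shock genes, HSFB2A fell by 1.26 and HSP81-2 by 0.42 (limma adjusted p = 9.97e-04 and 0.00662). Without the experiment term ABI2, AOS, RR5, GID1A, GH3.1 and IAA14 were not called. Without the 6 h array of experiment 1 CYP707A3, RR5, GID1A, GH3.1 and IAA14 were not (adjusted p between 0.0777 and 0.143). Other single arrays also ended calls, namely the 6 h array of experiment 2 for ABI2, GH3.1 and GID1A, and that of experiment 3 for ABI2, CYP707A3, GH3.1 and RR5. The 0 h array did so in experiment 1 for ABI2, CYP707A3 and RR5, in experiment 2 for GH3.1, GID1A and IAA14, and in experiment 3 for ABI2, GH3.1 and RR5 (highest adjusted p = 0.278). Against the minus Pi arrays at 0 h ABI2, GH3.1 and HSP81-2 were not called (adjusted p = 0.154, 0.171 and 0.0514).

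Further lists held 1 call or none. The mitochondrial NAD(P)H dehydrogenase gene NDB2, the tubulin gene TUB9, the arabinogalactan protein gene AGP1 and the water channel gene PIP2A were each the only call. Their lists held 4, 9, 17 and 8 measured genes. The 4 genes differed by -0.91, 0.35, -0.45 and -0.45 (limma adjusted p = 0.00285, 0.0133, 0.0215 and 0.0300). None of the 4 was called without the experiment term (adjusted p = 0.268, 0.191, 0.0562 and 0.409). NDB2 differed by -0.57 (limma adjusted p = 0.0499) against the minus Pi arrays at 0 h. TUB9 was not called without the 6 h array of experiment 2 or the 0 h array of experiment 3 (highest adjusted p = 0.0805). AGP1 was not called without the 6 h array of experiment 2 or 3 or the 0 h array of experiment 1 or 2 (highest adjusted p = 0.110), nor PIP2A without the 6 h or the 0 h array of experiment 1 or 3 (highest adjusted p = 0.133). The water channel gene PIP1A differed by -0.07 (SE 0.14, limma adjusted p = 0.881). Limma called 0 of 8 defence, 0 of 4 ER folding and 0 of 6 proton pump genes, of which 2, 1 and 2 had an unadjusted p under 0.05. Without the experiment term it called none of them either. Limma also called 0 of 7 cell cycle, 0 of 12 endodermis and 0 of 9 xylem genes with and without the experiment term, and 1, 0 and 0 of them had an unadjusted p under 0.05. The cyclin gene CYCB1;1 differed by 0.19 (SE 0.20, limma adjusted p = 0.728).

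Leaf photosynthesis genes, taken as markers of stray shoot tissue, were not evenly low. Their summed linear level over 7 genes was 931.6, 522.2 and 335.1 in plus Pi roots at 6 h, against 360.6, 254.6 and 295.1 at 0 h, with overlapping groups. LHCA1, an antenna protein gene of photosystem I, had 7.39, 6.6 and 5.74 at 6 h, against 5.32, 5.17 and 5.06 at 0 h (difference 1.4, SE 0.22, limma adjusted p = 7.09e-04). LHCA4, its partner, rose by 1.38 (SE 0.32, limma adjusted p = 0.0130), but was not called without the experiment term (adjusted p = 0.170) or without the 6 h array of experiment 1 or 2 or the 0 h array of experiment 2 (highest adjusted p = 0.0881). The rubisco activase gene RCA had 5.97, 5.41 and 4.97 at 6 h, against 5.90, 5.16 and 5.46 at 0 h. At 6 h 4, 3 and 1 of the 7 genes stood above the array median in experiments 1, 2 and 3, against 1, 0 and 1 at 0 h. The list medians by experiment, 1.55, 0.50 and 0.11, had the same order as those of the sugar shortage list (1.93, 0.84 and 0.18). In minus Pi roots LHCA1 and LHCA4 rose by 0.91 and 1.23 from 0 h to 6 h (limma adjusted p = 0.00376 and 0.00648). There 3 of the 7 genes were called higher, and the list median was 0.08. At 6 h less 24 h in plus Pi roots LHCA1 and LHCA4 were both at 1.19 (limma adjusted p = 0.00423 and 0.0492). Without the experiment term LHCA4 was not called at that contrast (adjusted p = 0.409). The part of stray tissue in these rises was not tested. Limma called 0 of 72 probe sets of the plastid genome, with 0 at an unadjusted p under 0.05 and 0 called without the experiment term.

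**Figure D3:**
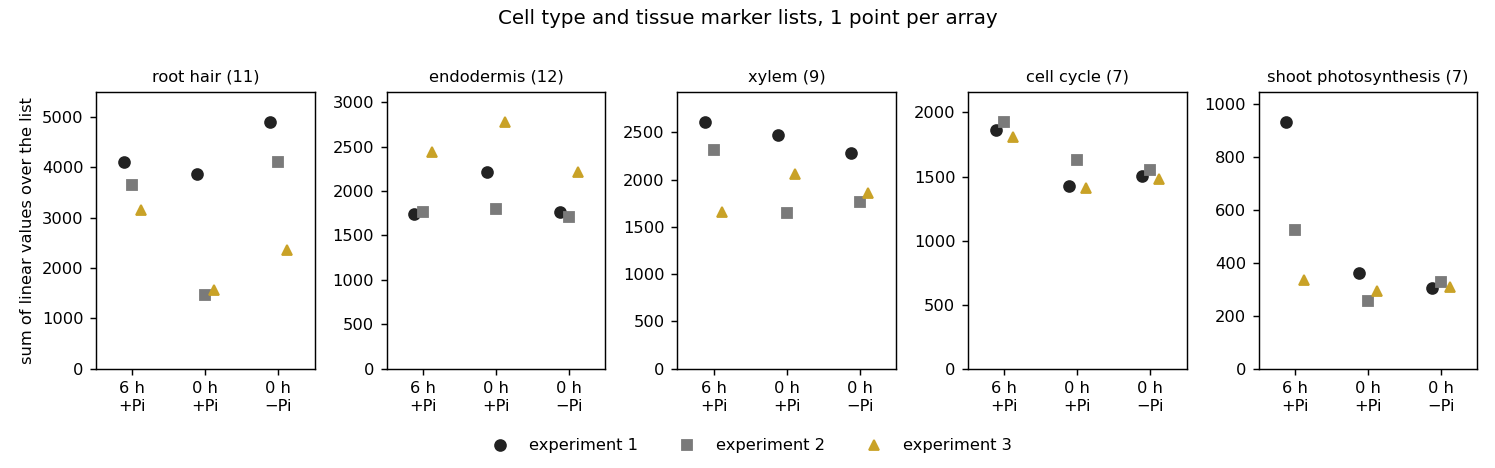
Summed linear level (vertical axis, starting at 0) of 5 marker lists on each array of plus Pi roots at 6 h and at 0 h and of minus Pi roots at 0 h, with the number of genes in each list. Root hair genes were low at 0 h in experiments 2 and 3 of the plus Pi roots (1463 and 1561), and the leaf photosynthesis genes were highest at 6 h in experiment 1 (931.6).

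The 24 h arrays allowed a comparison at another hour of the day after the same transfer. Between 6 h and 24 h in plus Pi roots, limma called 769 probe sets (3.38%), 338 higher (1.49%) and 431 lower (1.89%) at 6 h. This contrast uses the 6 h arrays a second time, so its values stand beside those against 0 h and are no independent repeat. The clock and light genes differed from 24 h by about as much as from 0 h. AT3G54500 was -4.48 (limma adjusted p = 1.53e-09), RVE1 -1.29 (limma adjusted p = 7.87e-05), TOC1 1.22 (limma adjusted p = 8.54e-05) and PRR3 1.38 (limma adjusted p = 4.16e-04) at 6 h less 24 h. Without the experiment term PRR3 was not called at this contrast (adjusted p = 0.339). BBX19 had the smallest adjusted p among genes with a symbol, at -1.82 (limma adjusted p = 2.94e-07).

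ABCI21 and HYH behaved in the same way, at -3.63 and -2.0 (limma adjusted p = 4.21e-06 and 7.21e-04). DDB2, a DNA damage-binding protein gene, was lower by 1.07 (limma adjusted p = 1.36e-06), with a difference of -1.01 from 0 h. The plastid sigma factor gene SIGE was at -1.74 (limma adjusted p = 1.66e-05) from 24 h and at -1.32 (limma adjusted p = 1.71e-04) from 0 h. ATH13, a gene of an ABC1-like kinase, was at -1.37 and -1.25 (limma adjusted p = 1.14e-05 and 2.04e-05), and the glutathione reductase gene GR1 at -0.91 and -0.98 (limma adjusted p = 3.46e-05 and 1.20e-05). Of the dawn clock list 5 of 6 members were lower at 6 h than at 24 h, and of the day and evening list 6 of 13 were higher and 3 lower. With no experiment term the dawn list had 3 lower and the day and evening list 2 higher and 0 lower, and 247 probe sets were called between 6 h and 24 h, and without the 6 h or the 24 h array of experiment 1, 379 or 302 were. Without the 6 h array of experiment 2, 416 were.

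The touch and rapid stress genes differed from the clock and light genes in their level at 24 h. A fall by 1 h was not particular to them. ABCI21 and ABCI20 were also called at 1 h against 0 h, at -1.71 and -1.38 (limma adjusted p = 0.0157 and 0.0136). So were BBX19 and DDB2, at -0.67 and -0.42 (limma adjusted p = 0.0185 and 0.0235). AT3G54500, RVE1, HYH, SIGE, ATH13 and GR1 were not called at 1 h (limma adjusted p between 0.0893 and 0.526). TCH4 averaged 9.94 ± 0.73 at 0 h, 6.83 ± 0.16 at 1 h, 6.33 ± 1.00 at 6 h and 5.68 ± 0.47 at 24 h (SD, n = 3 each). It was already low at 1 h, by -3.11 against 0 h (limma adjusted p = 4.73e-04), and stayed low at 24 h, by -4.26 (limma adjusted p = 1.35e-05). Its difference between 6 h and 24 h was 0.65 (SE 0.40, limma adjusted p = 0.506). DIC2 stood at -3.30, -3.36 and -3.61 against 0 h at 1, 6 and 24 h, NUDT21 at -2.63, -2.48 and -2.50, and RRTF1 at -2.31, -2.09 and -2.50. All of these differences were called. The touch list had medians of -0.77, -1.27 and -1.75 at 1, 6 and 24 h, and the rapid stress list had -1.24, -0.84 and -1.85. Between 6 h and 24 h 1 of 16 touch genes and 2 of 21 rapid stress genes were called, each higher at 6 h, and none of them without the experiment term. The differences at 1, 6 and 24 h share the 0 h arrays, so a high 0 h level enters all of them.

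Several genes that rose were highest at 6 h. BT2 averaged 7.18 ± 0.52 at 0 h, 8.80 ± 0.75 at 1 h, 9.98 ± 0.28 at 6 h and 7.65 ± 0.50 at 24 h (SD, n = 3 each), and its difference between 6 h and 24 h was 2.33 (limma adjusted p = 0.00467). DYL1 (1.83, limma adjusted p = 6.65e-04), DIN10 (1.68, limma adjusted p = 0.0374) and PDC2 (2.51, limma adjusted p = 0.00308) were likewise higher at 6 h than at 24 h, but DIN10 was not called without the experiment term (adjusted p = 0.0872). LBD38 was called at 1 h (1.13, limma adjusted p = 0.0243) and at 6 h, and did not pass between 6 h and 24 h (0.66, limma adjusted p = 0.158). ATSDI1 was at -2.25 at 1 h (limma adjusted p = 0.0701), at -2.60 at 6 h and at -0.30 at 24 h (limma adjusted p = 0.989), against 0 h. EBF2 was highest at 1 h, with a rise of 2.16 (limma adjusted p = 4.03e-05) against 1.29 at 6 h and 0.77 at 24 h (limma adjusted p = 0.137).

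**Figure D4:**
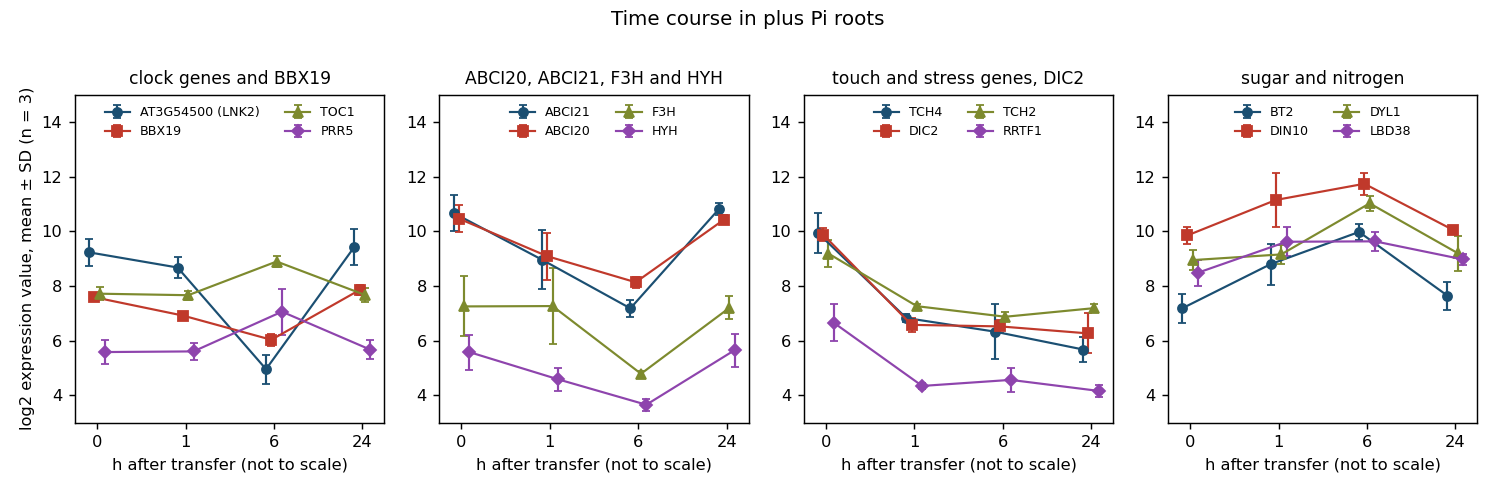
Mean expression level (log2, with SD over 3 arrays) of 16 genes in plus Pi roots at 0, 1, 6 and 24 h after transfer, with the times evenly spaced. AT3G54500, BBX19, ABCI21, ABCI20, F3H and HYH are lowest at 6 h and back near their 0 h level at 24 h. Of these, BBX19, ABCI21 and ABCI20 were already called lower at 1 h. TOC1 and PRR5 peak at 6 h, and TCH4, DIC2, TCH2 and RRTF1 are low at 1, 6 and 24 h.

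The change by 6 h was also set against that in roots moved to solution without Pi, which uses other arrays. In minus Pi roots limma called 7312 probe sets (32.1%) between 6 h and 0 h, 3475 higher (15.3%) and 3837 lower (16.9%), and 4177 without the experiment term. Of the 1435 calls in plus Pi roots, 904 were also called in the same direction in minus Pi roots. They make up 63.0% of the plus Pi calls and 12.4% of the minus Pi calls. Over all calls of the plus Pi roots 1267 had the same sign in minus Pi roots. The share with the same sign over all probe sets was not computed, so this count has no background beside it.

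For the clock and light genes named above no difference between the arms was called. AT3G54500 was at -4.27 in plus Pi and -3.58 in minus Pi roots, and the change was not shown to differ (-0.69, SE 0.32, limma adjusted p = 0.170). TOC1 was at 1.18 and 1.39 (difference -0.21, SE 0.21, limma adjusted p = 0.568), BBX19 at -1.55 and -1.57 (difference 0.01, limma adjusted p = 0.974) and BBX8 at 1.85 and 1.82 (difference 0.03, limma adjusted p = 0.968). BT2 was at 2.79 and 2.00 (difference 0.80, SE 0.61, limma adjusted p = 0.444). Of the 13 day and evening clock genes 1 had a change that was called different. This was TCP11, named here after its values were seen, a TCP factor gene with a difference of 1.04 (limma adjusted p = 0.00538) that was not called without the experiment term (adjusted p = 0.221). Of the 6 dawn genes limma called 0, with 3 at an unadjusted p under 0.05 and 0 called without the experiment term.

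A direct test of plus Pi less minus Pi change called 2640 probe sets (11.6%), 1465 higher (6.44%) and 1175 lower (5.17%), and 426 without the experiment term. Leaving out the 6 h or the 0 h plus Pi array of experiment 3 gave 1746 or 1298 calls. Leaving out a minus Pi array of experiment 1 or 2 gave 1748 or 1756 at 6 h and 1482 or 1658 at 0 h. Among the touch genes, TCH4 fell in plus Pi roots and was not called in minus Pi roots (-0.18, limma adjusted p = 0.784). In minus Pi roots it averaged 10.22 ± 0.66 at 6 h and 10.40 ± 0.52 at 0 h (SD, n = 3 each), and the change differed by -3.43 (SE 0.56, limma adjusted p = 0.00136). RHL41 was at -1.99 in plus Pi and 0.0049 in minus Pi roots (limma adjusted p = 0.00883), and AT3G01830 was at -2.24 and -1.13 (limma adjusted p = 0.0448). Neither difference was called without the experiment term (adjusted p = 0.126 and 0.0995). TCH2 (-2.31 and -1.98), CML23 (-2.42 and -2.50) and DIC2 (-3.36 and -2.57) fell in both arms with no called difference (limma adjusted p = 0.365, 0.918 and 0.254).

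Of the 6 genes with a symbol and the smallest adjusted p in this test, 1 was called between 6 h and 0 h in plus Pi roots. ICL, the isocitrate lyase gene of the glyoxylate cycle, had 4.43, 4.86 and 4.90 in plus Pi roots at 6 h, against 4.55, 4.97 and 4.93 at 0 h. In minus Pi roots it was higher at 6 h by 3.84, and the change differed by -3.93 (SE 0.25, limma adjusted p = 8.60e-08). BGLU25, a beta-glucosidase family gene, was at 0.11 and 2.91 (limma adjusted p = 4.71e-07), ADC2, an arginine decarboxylase gene of polyamine synthesis, at -0.09 and 2.14 (limma adjusted p = 2.76e-05), and SNF7.1, a gene of endosomal sorting, at -0.27 and 0.69 (limma adjusted p = 1.36e-05). SNF7.1 was the 1 called in plus Pi roots (limma adjusted p = 0.0152). That call was lost without the experiment term (adjusted p = 0.521), against the minus Pi arrays at 0 h (adjusted p = 0.383), and without the 6 h array of experiment 1 or the 0 h array of experiment 1 or 3 (highest adjusted p = 0.067). The arabinogalactan protein genes AGP13 and AGP22 were at -0.24 and 0.09 in plus Pi roots, against -4.43 and -3.44 in minus Pi roots (limma adjusted p = 1.36e-05 and 2.76e-05). Of 17 measured arabinogalactan genes 1 fell in plus Pi and 16 in minus Pi roots, and 13 had a change that differed, against 6 without the experiment term. MSS1 rose in both arms, by 1.46 in plus Pi and 5.01 in minus Pi roots (difference -3.55, SE 0.50, limma adjusted p = 6.22e-04).

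**Figure D5:**
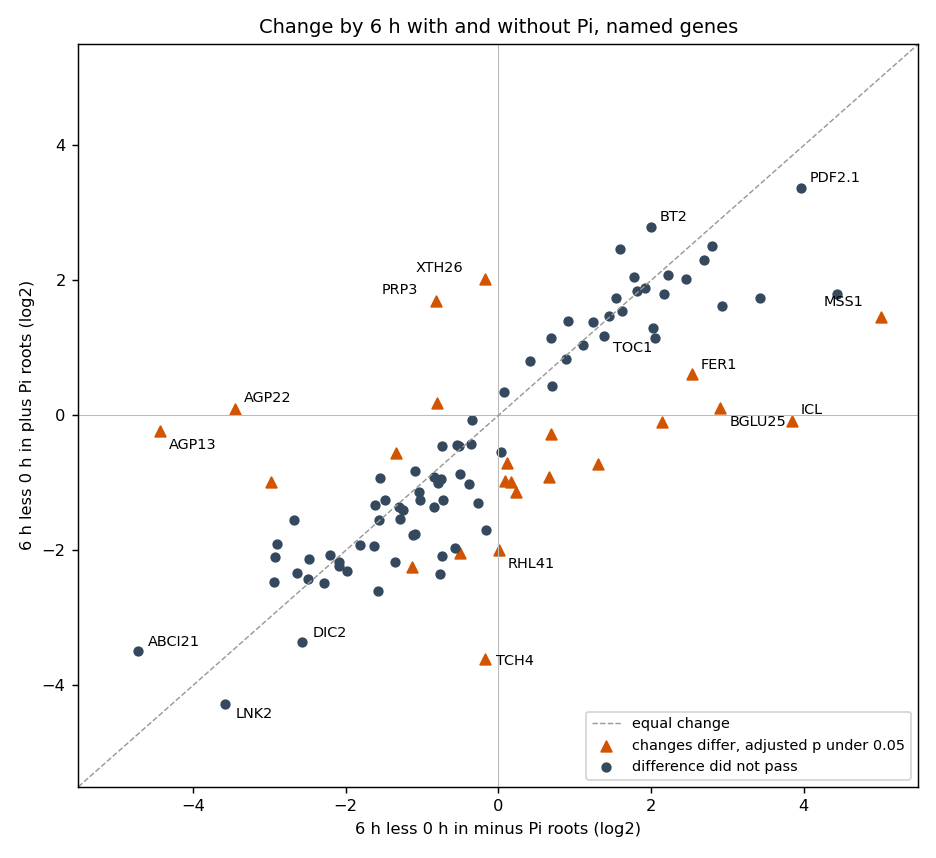
Change at 6 h less 0 h (log2) in plus Pi roots (vertical axis) against minus Pi roots (horizontal axis) for the 100 named genes, with triangles for genes whose change differed between the arms at a limma adjusted p under 0.05 and circles for the others. The dashed line marks equal change. TOC1 (1.18 and 1.39) lies near it, LNK2 (AT3G54500), ABCI21, BT2 and PDF2.1 are circles at up to 1.22 from it, and TCH4, ICL, MSS1, AGP13 and AGP22 are triangles at 3.43 or more from it.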

How the data were processed

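Values were used as deposited: log2 expression levels per probe set in the authors' value table, from 1-colour Affymetrix arrays. Summarisation and normalization of the probes are not given in the sources used here, and limma is named in the submitters' processing notes. The difference between group means of this table matched the log2 coefficients of the authors' deposited comparison table to within 5e-07. Of 22810 probe sets, 64 controls were left out. Loci came from the authors' deposited locus column, with gaps filled from the annotation GEO holds for the array (possibly outdated), and symbols from NCBI's TAIR10.1 gene table. For each list gene, the brightest probe set on average among those specific to it was used.

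Tests used R 4.3.3, limma 3.58.1 and statmod 1.5.0. Means of 8 groups and the experiment as a fixed block were fitted to all 24 arrays (14 residual degrees of freedom), with Benjamini-Hochberg adjustment within each contrast and a call under 0.05. An exact permutation test of 3 arrays against 3 that ignores the pairing cannot go below p = 0.1. One that keeps the 3 pairs has fewer arrangements and a higher floor. The calls therefore depend on a spread estimated across all groups and probe sets. The labels give the number as the run of the whole experiment, so arrays of 1 number are paired. In experiments 1, 2 and 3 the 6 h and 0 h arrays, each less its group mean, correlated with r of 0.748, 0.391 and 0.646. Level differences between the 3 runs are taken up by the block. The p-values measure how unevenly the group differences repeated from run to run, with that spread pooled over the 8 groups. The fit was also run on data simulated from the same model, which cannot test whether that model holds for these arrays.

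Named genes were the 15 largest rises and 15 largest falls among called probe sets with 1 gene, a symbol and the same sign in the 3 experiments, up to 6 called members per list, 12 fixed genes of which 8 had a probe set naming 1 gene, and the 6 smallest adjusted p of each other test. RCA, and genes said to be so, were chosen after their values were seen. The members, lists and tests were chosen with earlier results of these data known. Planned counts of promoter motifs were not made here. Alternatives are given in the closing section.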

Additional observations from a re-analysis of the deposited data

Results flagged for a closer look

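The change at 6 h less 0 h differed between plus Pi and minus Pi roots for 2640 probe sets by limma's test of the difference, and for 23 of the named genes. Values are the plus Pi change less the minus Pi change on the log2 scale. Genes with a more positive change in plus Pi roots were AGP13 (4.19), AGP22 (3.53), PRP3 (2.51), XTH26 (2.2), CYP707A3 (1.98), CYCB1;1 (0.98) and IAA14 (0.79). Genes with a more negative change in plus Pi roots were ICL (-3.93), MSS1 (-3.55), TCH4 (-3.43), BGLU25 (-2.79), ADC2 (-2.23), SPX1 (-2.02), RHL41 (-2.0) and FER1 (-1.92). Smaller negative values were those of NDB2 (-1.57), XTR6 (-1.53), XTH18 (-1.35), SULTR4;1 (-1.16), AT3G01830 (-1.10), GR1 (-1.06), SNF7.1 (-0.96) and PYE (-0.81). Without the experiment term 9 of the 23 were not called, which were XTR6 (adjusted p = 0.557), PRP3 (0.225), XTH26 (0.133), CYCB1;1 (0.129), RHL41 (0.126), NDB2 (0.117), AT3G01830 (0.0995), IAA14 (0.0862) and XTH18 (0.0604). The 0 h levels of both arms enter these values, and for PRP3 and XTH26 the plus Pi roots were lower at 0 h than the minus Pi roots (7.68 ± 1.45 and 9.20 ± 0.77 for PRP3, 4.53 ± 0.36 and 6.28 ± 0.62 for XTH26, SD, n = 3 each).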

How the results depend on the processing

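Of 112 gene results under 2121 alternatives, 1742 kept their side of the threshold, 378 kept the direction but lost the call and 1 gained it. The sign changed in 8 alternatives of 5 genes (ADC2, AGP13, AGP22, CYCB1;1 and PIP1A at 6 h against 0 h), none of them called in either fit. Of 101 called gene results 65 were called without any 1 array. For 6 h against 0 h, 6 h against 24 h and the plus Pi less minus Pi change, the no replicate block fit called 532, 247 and 426 probe sets and the 2-fold limit left 390, 211 and 781. Fitting only the arrays compared gave 426 for 6 h against 0 h and 1107 for the difference of changes. Leaving out 1 experiment or 1 array gave 419 to 1466, 162 to 690 and 291 to 3682 calls. Random block, array centring, quantile normalization, a level filter, an intensity trend and leaving out arrays numbered out of run moved no count by over 1.5 times, and the minus Pi arrays at 0 h gave 1570. The cause of these shifts was not tested. Fewer arrays entered where an experiment or array was left out or only the arrays compared were fitted. The no replicate block fit and the 2-fold limit used all 24 arrays. With 3 arrays per group, the number of arrays limits the precision, and signal over background was not analysed here.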

Other observations

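Some of the largest changes lay in loci without a symbol, which the naming rule left out, and the 3 named here were chosen after their values were seen. AT5G62360 rose by 3.76 (SE 0.51, limma adjusted p = 1.75e-04), with 3.97, 4.91 and 2.42 in experiments 1, 2 and 3. AT4G29780 fell by 3.86 (SE 0.29, limma adjusted p = 3.57e-07), with -4.04, -3.82 and -3.73, and its difference between 6 h and 24 h was 0.31 (limma adjusted p = 0.715). AT5G06980, which the gene table also lists as LNK4, fell by 2.37 (SE 0.24, limma adjusted p = 1.26e-05). Of the 390 2-fold calls 284 named 1 gene and 119 had a symbol.

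Limma called 0 of 29 probe sets of the mitochondrial genome at 6 h against 0 h, with 0 at an unadjusted p under 0.05 and 0 called without the experiment term.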
